A study of Mus musculus with 4 samples.

Results

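The nuclear factor I (NFI) family has 4 genes in the mouse, Nfia, Nfib, Nfic and Nfix, and V5-Foxr2 peaks were examined at each of them. The members were taken by name, 4 of 21911 protein-coding genes, and every peak from 50 kb before to 50 kb after the gene was kept, whatever its length and whether 1 or both replicates held it. In the Foxr2 p53LOF line these regions held 62 of 31909 peaks in replicate 1 and 86 of 38580 in replicate 2, and in the V5 control line they held 0 of 308 and 0 of 124. Binding was mapped by CUT&RUN, in which an antibody, here to the V5 tag, directs a nuclease to the chromatin it marks, in 2 replicates of each line. Both lines were grown from tumors that followed in utero electroporation (IUE) of C57BL/6J embryos. The Foxr2 p53LOF line carries V5-tagged Foxr2 on a piggyBac vector, under the ubiquitous CAG promoter, together with loss of p53 function from a guide RNA, so the tagged protein is overexpressed and its binding is not that of a Foxr2 protein at its own level. The V5 control line has the genotype H3.3G34R, carries no V5 tag and comes from a separate IUE model, so tag, driver mutation and tumor of origin cannot be told apart between the groups. Cells were cross-linked with 0.1% formaldehyde for 1 minute. No source used here says whether replicates were separate cultures, so the agreement between them may be technical.

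NFI proteins are CCAAT box-binding factors that bind DNA as dimers at a palindrome of TTGGC and GCCAA with 5 bases between, and more weakly at a single TTGGC. Nfia and Nfib switch on with Sox9 at the onset of gliogenesis in the embryonic nervous system, where they promote astrocyte genes, and Nfix promotes quiescence of neural stem cells. Nfic is best known for tooth root formation and is expressed widely. In all 4 genes the DNA-binding domain is encoded largely by the second exon.

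A peak's fold is the number of fragments at its summit plus 1 over the library's background plus 1, so it compares a summit with its own library. The background was 1.26 fragments in Foxr2 p53LOF replicate 1 and 2.04 in replicate 2, and the median fold over all peaks was 5.30 and 4.93. The lists show no read totals. Intervals given for a fold are exact 95% Poisson intervals on the summit fragments and cover counting error only. The sites called reproducible here are stretches covered in both replicates by peaks with a fold above 6, a −log10 q above 6 and a length under 10 kb that overlap no control peak. Of 11947 such sites, 24 lay in the NFI regions, and 64.7% of protein-coding genes had at least 1 site by the same region rule. The control line had a peak in the region of 1.13% of genes. Its nearest peak to an NFI region lay 2.10 Mb from Nfix, and the others lay up to 35.8 Mb away. As a check of the labels, the Foxr2 coding sequence held a peak with a fold of 5.74 in replicate 1 and 6.24 in replicate 2 and none in either control. Peak lists hold no expression values, so the identity of the cells could not be checked against markers. With 2 libraries against 2 the smallest two-sided exact permutation p is 0.333, so no group test was run.

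The following stretches of GRCm38 (mm10) carry the reproducible sites inside the gene bodies whose summits were at most 100 bp apart in the replicates, and they show what sequence lies under the summits. Each is 200 bases of the plus strand centered midway between both summits, 5′ to 3′, and none overlaps an annotated exon. Capitals mark matches on either strand to 1 of 10 motifs searched, which are spelled out with the motif counts.
Nfia intron 2, chr4:97869104-97869303: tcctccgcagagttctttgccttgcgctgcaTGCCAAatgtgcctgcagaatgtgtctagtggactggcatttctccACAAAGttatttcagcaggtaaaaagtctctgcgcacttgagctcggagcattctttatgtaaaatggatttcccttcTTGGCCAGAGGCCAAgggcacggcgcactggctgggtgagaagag
Nfib intron 2, chr4:82495134-82495333: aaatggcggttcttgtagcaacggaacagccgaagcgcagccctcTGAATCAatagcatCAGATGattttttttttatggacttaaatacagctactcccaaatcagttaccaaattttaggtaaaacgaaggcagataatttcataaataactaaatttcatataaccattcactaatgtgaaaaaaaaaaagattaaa
Nfib intron 1 of the long transcript, chr4:82513442-82513641: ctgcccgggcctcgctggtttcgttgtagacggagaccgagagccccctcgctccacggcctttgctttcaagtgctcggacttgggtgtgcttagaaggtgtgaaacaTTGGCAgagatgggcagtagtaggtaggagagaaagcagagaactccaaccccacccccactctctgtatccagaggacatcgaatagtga
Nfic intron 2, chr10:81416765-81416964: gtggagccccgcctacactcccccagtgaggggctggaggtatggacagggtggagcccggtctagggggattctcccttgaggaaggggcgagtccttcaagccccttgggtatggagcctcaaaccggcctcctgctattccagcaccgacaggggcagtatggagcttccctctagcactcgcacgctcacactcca
Nfix intron 2, chr8:84766012-84766211: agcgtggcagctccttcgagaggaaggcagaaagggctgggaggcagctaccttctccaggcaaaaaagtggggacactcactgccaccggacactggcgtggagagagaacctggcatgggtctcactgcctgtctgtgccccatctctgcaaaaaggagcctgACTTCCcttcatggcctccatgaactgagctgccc
Nfix intron 2, chr8:84728695-84728894: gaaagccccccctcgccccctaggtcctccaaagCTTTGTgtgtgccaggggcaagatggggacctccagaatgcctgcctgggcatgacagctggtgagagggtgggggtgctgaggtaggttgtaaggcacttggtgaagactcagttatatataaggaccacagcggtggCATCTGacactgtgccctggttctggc

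Nfia (ENSMUSG00000028565.18, chr4:97772734-98118874, plus strand) had the highest fold within any of the 4 gene bodies. That peak lay in intron 2, 91.6 kb downstream of the main start at 97777608, and its fold was 15.9 (11.2 to 21.9) in replicate 1 and 17.7 (13.4 to 23.1) in replicate 2. It rested on 35 and 53 summit fragments, and the summits were 19 bp apart. Among all peaks of their libraries these folds stood at the 95.1 and 94.9 percentiles. The printed sequence under it holds a complete NFI palindrome, TTGGCCAGAGGCCAA at chr4:97869259-97869273, whose center lies 71 bp from the summit of replicate 1 and 52 bp from that of replicate 2. The same 200 bases hold a SOX match, ACAAAG, and a further TGCCAA.

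Around the main Nfia start the signal was broad rather than pointed. A peak of 7097 bp in replicate 1 and 7119 bp in replicate 2 covered it with folds of 9.28 and 12.2, but the summits were 4282 bp apart. The replicate 1 summit lay at -0.7 kb from the main start. That of replicate 2 lay at -5.0 kb, beside the upstream start of transcript Nfia-208 and the oppositely transcribed E130114P18Rik. Behind it, replicate 2 had a peak of 11958 bp with a fold of 9.20, and replicate 1 had 3 shorter peaks across the same stretch with folds from 6.19 to 8.84. The stretches at 14.5 and 17 kb that counted as reproducible sites there share a single replicate 2 peak. A further long peak of replicate 2, 10800 bp at 128.2 kb with a fold of 9.20, coincided with replicate 1 peaks of 9.72 and 6.63. Downstream the gene was sparse. The last replicate 1 summit in the body lay at 173.1 kb, replicate 2 had 3 weaker peaks from 192.5 kb onward with folds of 3.29 to 4.27, and the final 85.9 kb of the body held no peak in either replicate.

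Nfib (ENSMUSG00000008575.17, chr4:82290173-82705750, minus strand) had its highest peak at the main start, 82505770, from which 6 of its 7 protein-coding transcripts begin. The fold there was 13.3 (9.02 to 18.8) in replicate 1 and 16.1 (12.0 to 21.2) in replicate 2, on 29 and 48 fragments. This was the strongest promoter peak of the family in both replicates, although its intervals overlapped those of the highest promoter peaks of Nfia, Nfix and Nfic in each. The replicate 2 peak was 11582 bp long and so fell outside the length limit, which left Nfib without a reproducible promoter site. Peaks on either side of it were seen in both replicates. In intron 2, at 9.6 kb, the folds were 7.07 and 11.5 with summits 10 bp apart. At -7.0 kb, inside the first intron of the long transcript Nfib-212, they were 6.63 and 11.8 with summits 13 bp apart. The sequence printed for this last site holds the single NFI motif TTGGCA, and that of the intron 2 site holds an E-box CAGATG and an AP-1 match. All 12 peaks of replicate 1 and all 12 of replicate 2 lay between -117.1 and 69.6 kb of the main start. The 145.3 kb at the 3′ end of Nfib and the 81.9 kb at its 5′ end, which includes the start of Nfib-212, held no peak in either replicate, and both flanks were empty as well.

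Nfix (ENSMUSG00000001911.16, chr8:84699876-84800344, minus strand) had little signal at its main start. The peak there had a fold of 3.98 (1.97 to 7.41) in replicate 1 and 5.59 (3.33 to 8.86) in replicate 2. A wide peak, 4466 bp in replicate 1 and 6182 bp in replicate 2, lay 26 kb inside the gene over the starts of transcripts Nfix-203 and Nfix-204, with folds of 8.84 (5.50 to 13.6) and 9.20 (6.17 to 13.2). Its summits were 2632 bp apart. That of replicate 1 lay 202 bp from the nearest of these starts, and that of replicate 2 lay 1457 bp away, outside the 1 kb promoter window. The intervals of this peak and that at the main start overlapped in each replicate. Their summits held 19 and 8 fragments in replicate 1, and 27 and 16 in replicate 2. The wide peak was thus the higher in both, and the difference was not tested. A peak in intron 2 at 34.1 kb had folds of 10.6 and 9.20 with summits 84 bp apart, the highest of the body in replicate 1 and level with the wide peak in replicate 2. Replicate 2 added several weaker peaks in intron 2 and held 30 peaks in the whole region against 15 in replicate 1.

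Nfic (ENSMUSG00000055053.18, chr10:81396186-81455635, minus strand) had the lowest maximum fold of the family within its body, 7.51 in replicate 1 and 8.54 in replicate 2. Its main start, at 81427187, had a peak in replicate 1 with a fold of 3.53 on 7 fragments and none in replicate 2. The peak over the start of Nfic-204, at -3.8 kb, had folds of 6.63 (3.82 to 10.8) and 8.54 (5.64 to 12.5), but its summits lay 2320 and 1890 bp from that start, outside the 1 kb window in both replicates. The site in intron 2, at 10.4 kb, had folds of 7.51 and 8.21 with summits 25 bp apart, and its printed sequence holds none of the motifs. The start of Nfic-205, at 19.5 kb, had folds of 3.98 and 4.60, below the fold limit in both replicates. By the highest fold in the body the order was Nfia, Nfib, Nfix and Nfic in both replicates. In replicate 1 the intervals of all 4 genes overlapped. In replicate 2 neighbors in the order overlapped, and the lower bound of Nfia, 13.4, was just above the upper bounds of Nfix, 13.2, and Nfic, 12.5.

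**Figure D1:**
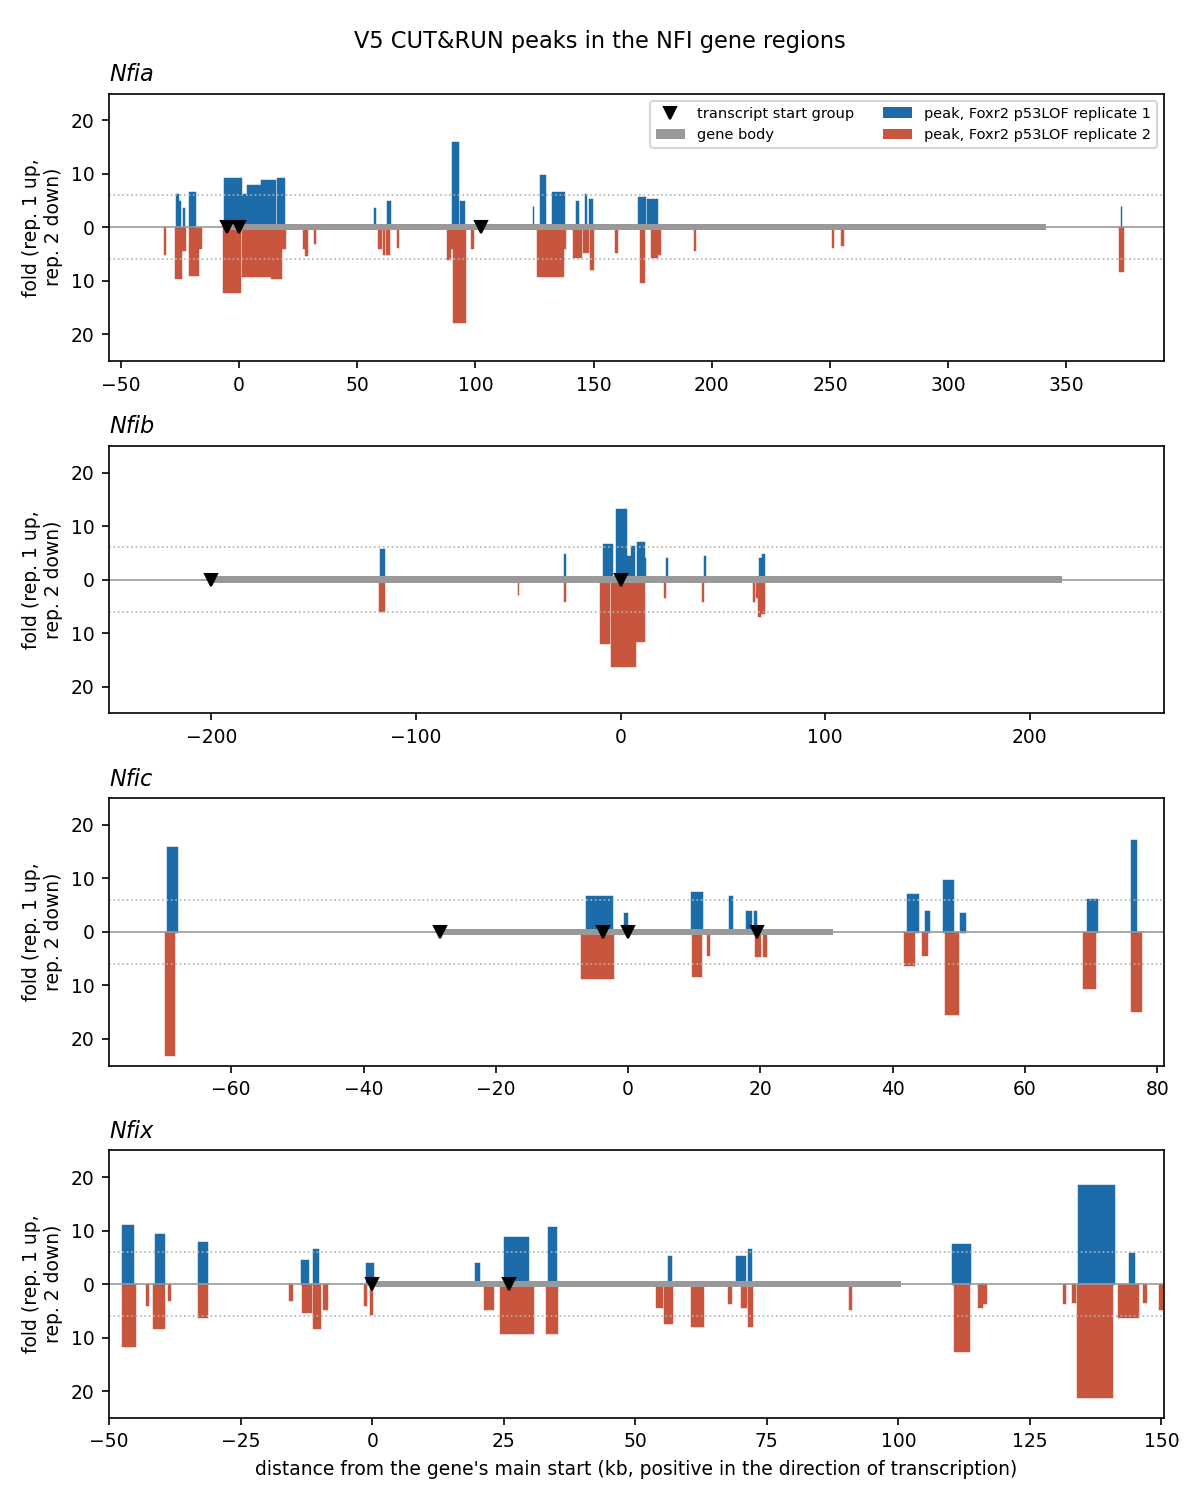
Every peak in the 4 NFI regions by distance from the gene's main start in kb (horizontal axis), with bar width the peak's length and bar height its fold, replicate 1 upward and replicate 2 downward. The gray bar is the gene body, triangles are groups of transcript starts and dotted lines mark a fold of 6. Peaks gather in the 5′ and middle part of Nfia and around the main start of Nfib, and the tallest bars of the Nfic and Nfix panels lie in the flanks.

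The 11 groups of protein-coding starts (starts up to 1 kb apart were joined) gave a gene-by-gene view of promoters. A peak of both replicates lay within 1 kb of 7 of them, where 38.5% of the start groups of all protein-coding genes had such peaks, and a reproducible site lay at 4, where 28.9% of all groups had one. Counted by gene, all 4 members had a peak of both replicates at some start, against 51.3% of protein-coding genes, and 3 of 4 had a reproducible promoter site, against 39.2%. Both Nfia groups that count here lie under the same wide peak. Among genes with a promoter peak, the highest promoter fold of Nfib stood at the 78.6 and 79.5 percentiles in replicates 1 and 2, that of Nfia at 55.5 and 64.1, that of Nfix at 51.5 and 45.1, and that of Nfic at 29.8 and 40.2. Nfib stood highest of the 4 in both replicates. These folds are those of the summit of a peak that reaches into the 1 kb window, and the summit itself can lie outside it. For Nfib the summits lay 502 and 189 bp from the main start. For Nfic in both replicates and Nfix in replicate 2 the highest fold came from a summit outside the window, and in Nfia the main start and that of Nfia-208 shared a peak, so the starts of these 3 genes could not be ranked. No start of the 4 genes had a control peak.

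**Figure D2:**
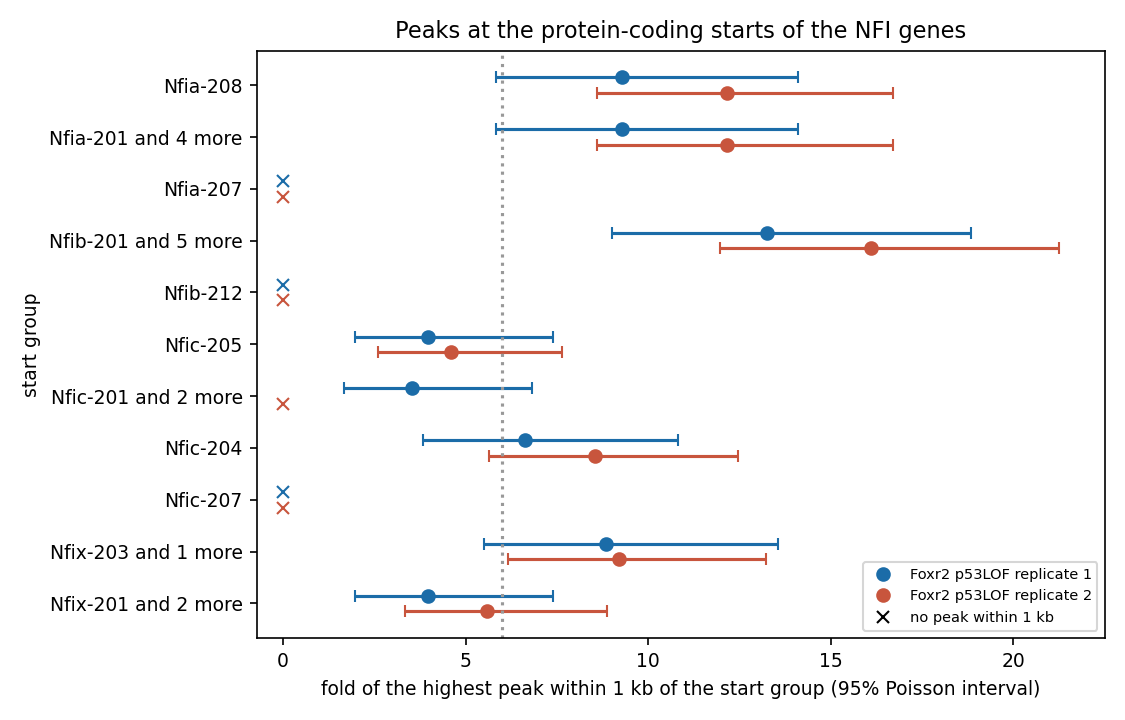
Fold of the highest peak that reaches within 1 kb of each of the 11 start groups (horizontal axis), wherever its summit lies, with its 95% Poisson interval, in both Foxr2 p53LOF replicates. Crosses at 0 mark groups with no peak, and the dotted line marks a fold of 6. The main start of Nfib has the highest folds, 13.3 and 16.1, and Nfia-207, Nfib-212 and Nfic-207 have no peak in either replicate.

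Most peaks inside the genes lay in the intron after the second exon. For each gene the longest protein-coding transcript of the main start group was taken as reference. Its longest intron was intron 2 in every member and made up 50.6% of the length in Nfia, 53.1% in Nfib, 34.1% in Nfic and 47.8% in Nfix. In Nfia this intron held 14 of 16 summits in replicate 1 and 23 of 26 in replicate 2. In Nfib it held 6 of 8 and 7 of 8. In Nfix it held 4 of 6 and 7 of 10, and in Nfic 2 of 4 in each. Over the family this was 76.5% of 34 summits in replicate 1 and 81.3% of 48 in replicate 2, with 50.3% of the reference length. In all 4385 protein-coding genes with a reference transcript of 50 kb or more, the longest intron held 44.5% and 45.6% of summits with 39.4% of the length. The reference transcript of Nfic is 31.0 kb long and so is outside that set, and without Nfic the family share was 80.0% of 30 summits and 84.1% of 44, with 51.1% of the length. The reference transcripts leave out 7 of the 41 body summits in replicate 1 and 5 of the 53 in replicate 2, 4 of them in Nfib each time. Summits of a gene share a locus and are not independent, so these shares are a description.

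Reproducible sites away from every annotated protein-coding start were found in all 4 genes, 3 in Nfia, 2 in Nfib, 2 in Nfix and 1 in Nfic. Of 5003 protein-coding genes of 50 kb or more, 19.4% had such a site in their body. Peaks of at least 10 kb in replicate 2 fell in the regions of 2 of 4 members, Nfia and Nfib, against 0.790% of all genes. There were 57 such peaks on assembled chromosomes and 3 of them lay in NFI regions. Replicate 1 had 20, none of them here. The regions of Nfia and Nfib are 446 and 516 kb long, with bodies of 346.1 and 415.6 kb. A longer gene has more room for a peak, and neither share over other genes was matched for length.

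**Figure D3:**
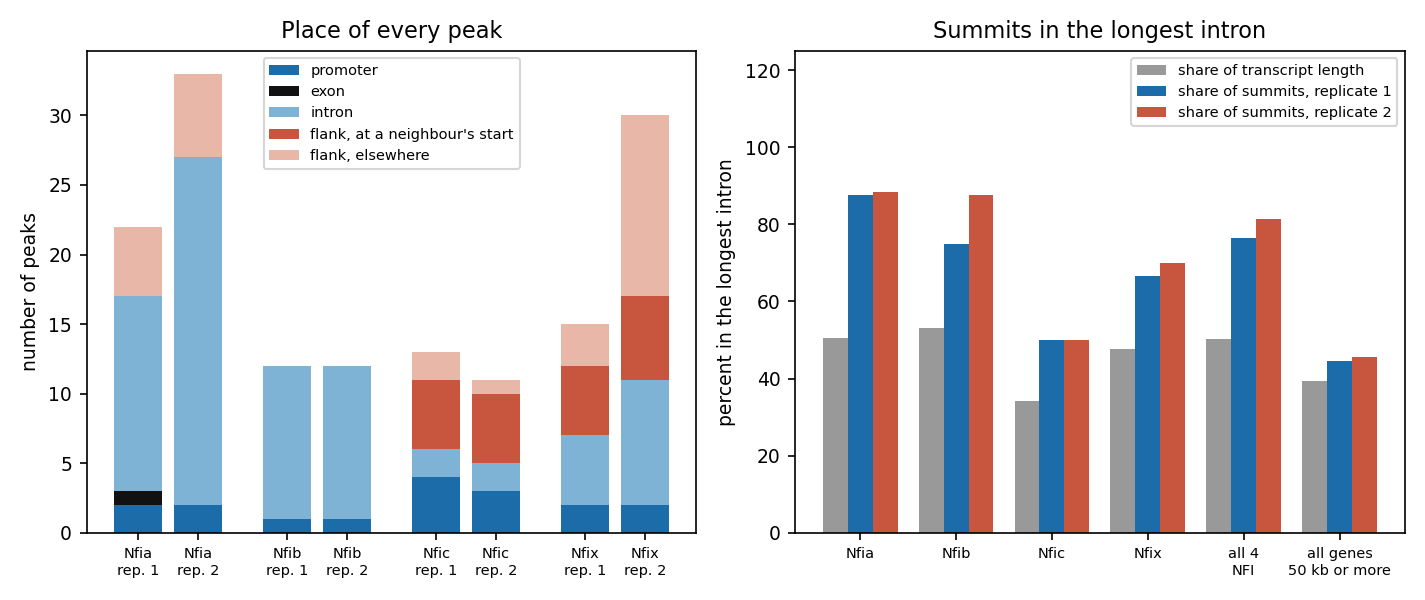
Left, number of peaks in each NFI region by replicate, stacked by place. Right, percent of the reference transcript's length (gray) and of the summits inside it (blue and red, replicates 1 and 2) that lie in its longest intron, for each gene, for all 4 and for all genes with a reference transcript of 50 kb or more. Over the 4 NFI genes the longest intron holds 76.5% and 81.3% of summits with 50.3% of the length.

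By place, the 62 peaks of replicate 1 were 9 at promoters, 1 over an exon, 32 in introns and 20 in flanks, and the 86 of replicate 2 were 8, 0, 47 and 31. Peaks per 100 kb of region were 4.93 and 7.40 for Nfia, 2.33 and 2.33 for Nfib, 8.15 and 6.90 for Nfic, and 7.48 and 15.0 for Nfix in replicates 1 and 2. The medians over all protein-coding genes were 1.93 and 2.33. Nfib was therefore at the typical density, and the other members were above it. Part of the density of Nfic and Nfix came from neighboring genes. Of the flank peaks of Nfic, 5 of 7 in replicate 1 and 5 of 6 in replicate 2 lay within 1 kb of a neighboring protein-coding start. For Nfix these were 5 of 8 and 6 of 19, and for Nfia 0 of 5 and 0 of 6.

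The highest folds of the Nfic and Nfix regions were those of peaks reaching within 1 kb of a neighboring start, wherever the summit lay. Upstream of Nfic, the start of Ncln had folds of 15.9 and 23.0 with summits 7 bp apart. Downstream, that of Hmg20b had 17.2 and 14.8, and that of Fzr1, an activator of the anaphase-promoting complex, had 9.72 and 15.4. In the Nfix region the peak at Ier2, an immediate early gene, had 18.6 and 21.0 with summits 1 bp apart. It was 6948 and 6671 bp long and was placed by its reach to the Ier2 start, not by its summits. The start of Calr, which encodes the chaperone calreticulin, had 11.0 and 11.5. With every site at the start of a neighboring gene left out, 13 of the 24 reproducible sites remained, 5 for Nfia, 4 for Nfix, 2 for Nfib and 2 for Nfic. That count drops the Nfia promoter site too, because the start of E130114P18Rik lies in it.

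Overlapping peaks of both replicates were merged into 90 loci, of which 43 were seen in both replicates, 10 in replicate 1 alone and 37 in replicate 2 alone. In the 43 shared loci the fold was higher in replicate 2 in 34, and the intervals of the replicates overlapped in all 43. Summits in the shared loci were a median of 171 bp apart, and in 15 they were within 100 bp. Loci seen in a single replicate were weak. Their median fold was 3.98 in replicate 1 and 3.94 in replicate 2, against 6.63 and 8.21 in the shared loci. The highest of them was 6.63 in replicate 1, in intron 2 of Nfic, and 7.88 in replicate 2, in intron 2 of Nfix. Nfia and Nfix had 15 loci each that only replicate 2 held, while Nfib had 5 and Nfic had 2.

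**Figure D4:**
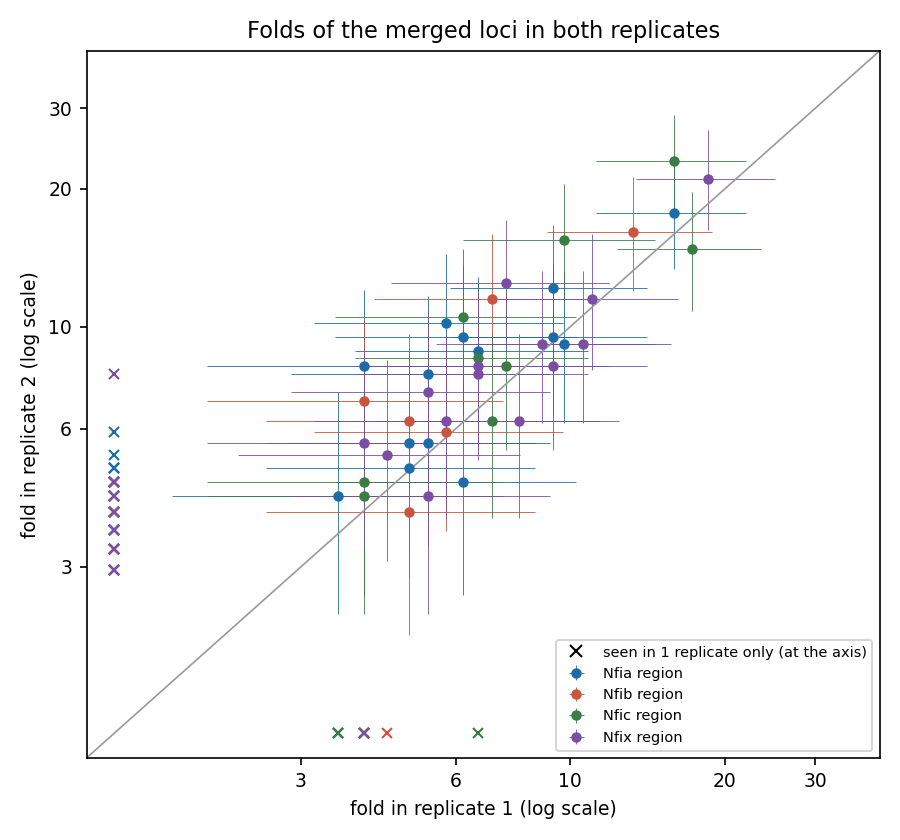
Fold in replicate 1 (horizontal) and replicate 2 (vertical) of the merged loci of the 4 NFI regions, both on log scales, with 95% Poisson intervals and the line of equality. Crosses at the axes are loci seen in 1 replicate. Of the 43 shared loci 34 lie above the line, and the loci of 1 replicate stay at or under folds of 6.63 and 7.88.

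Motifs were searched by exact letters on both strands in 200 bp at each summit. They were the ETS core ACTTCC, the ELK-type ETS motif CCGGAAG, SOX (ACAAAG or ACAATG), forkhead TAAACA, the single NFI motif TTGGCA, the NFI palindrome described above, E-boxes CAGATG and CATATG, AP-1 (TGANTCA) and the cyclic AMP response element (CRE) TGACGTCA. The single NFI motif can lie within the palindrome, and both ETS motifs can share bases. The palindrome was in 2 of 62 NFI windows in replicate 1 and 3 of 86 in replicate 2, and in 7 of 31861 and 17 of 38522 windows over all peaks. These NFI windows stand for 3 places. One is the Nfia intron 2 site whose sequence is printed above. A further Nfia place, TTGGCAGGTGGCCAA at chr4:97876121-97876135, lay 9 bp from the summit of a weak replicate 2 peak with a fold of 3.94. The last, TTGGCAGCATGCCAA at chr10:81382146-81382160 in the downstream flank of Nfic, lay 63 bp from both summits of a peak with folds of 3.98 and 4.27. The 2 weaker places did not meet the limits for a reproducible site.

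The single NFI motif was in 17.7% (exact 95% interval 9.20 to 29.5) of NFI windows in replicate 1 and 11.6% (5.72 to 20.3) in replicate 2, against 9.20% and 9.87% of all windows, so the replicate 2 interval included the share over all peaks and that of replicate 1 began at it. In 400 bp windows this turned round, with 25.8% (15.5 to 38.5) against 18.5% in replicate 1 and 30.2% (20.8 to 41.1) against 19.6% in replicate 2. For the remaining 8 motifs the exact intervals of the NFI shares included the shares over all peaks. All these intervals treat windows as independent, but windows of a gene share a locus. Nfia alone gave 22 of the 62 windows in replicate 1 and 33 of the 86 in replicate 2. The motif shares are therefore a description. The ETS core was in 12.9% and 8.14% of NFI windows against 12.1% and 11.9%. The SOX motif was in 24.2% and 25.6% against 23.6% and 24.7%, and the forkhead motif was in 14.5% and 17.4% against 11.8% and 13.3%. CAGATG was in 14.5% and 12.8% against 12.6% and 13.1%, CATATG in 3.23% and 1.16% against 3.46% and 3.45%, and AP-1 in 4.84% and 3.49% against 5.26% and 5.27%. The ELK-type motif was in 1 of 62 and 0 of 86 NFI windows, with 2.37% and 2.16% over all peaks. The CRE was in none of the NFI windows, which allows a share of up to 5.78% in replicate 1 and 4.20% in replicate 2 by the exact interval, and in 0.248% and 0.195% of all windows. The median GC content was 49.0% and 49.8% in NFI windows against 49.0% and 47.5% over all peaks. In the 250 bases before the main start, GC content was 84.4% with 39 CpG pairs for Nfia, 72.4% with 38 for Nfix, 61.6% with 17 for Nfic and 50.0% with 11 for Nfib, against medians of 52.0% and 5 over 32484 start groups. Nfib, with the highest promoter folds, thus had the lowest GC content of the 4. None of the motifs was found before the main starts of Nfia, Nfib or Nfic, and that of Nfix held a SOX match, which 25.5% of start groups hold in the same length.

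Genes linked to NFI factors in gliogenesis were examined by the same rules. Of 16, 15 had a reproducible site in their region and 11 at a promoter, where 64.7% and 39.2% of protein-coding genes did. None had a control peak. The promoter of Sox9, which acts with Nfia and Nfib to start gliogenesis, had folds of 10.2 and 11.5. Among its targets with Nfia, Zcchc24 had promoter folds of 9.72 and 9.86, while Apcdd1 and Mmd2 had a site in their regions only. Of the astroglial genes, Fabp7, a radial glial fatty acid-binding protein, had 8.84 and 10.5, and Slc1a3, a glutamate transporter, had 7.95 and 6.90. The filament gene Gfap had 6.19 and 9.20, and S100b had 6.63 and 8.87. The folate enzyme gene Aldh1l1 had a site in its region only, and Aqp4, the water channel of astrocyte endfeet, had no peak in either replicate. The Notch effector Hes1 had 12.8 and 15.8 and the receptor Notch1 had 10.2 and 17.4, while Hes5 had no promoter site, with folds of 5.74 and 6.90. Ezh2, the Polycomb methyltransferase, had the highest promoter folds of the list, 17.7 and 21.4. The progenitor genes Id4 and Pou3f2 had 10.2 and 11.8, and 10.2 and 12.8. The highest promoter folds of Nfia, 9.28 and 12.2, lay between those of Fabp7 and Hes1, and those of Nfib were close to Hes1. Those of Nfix were 8.84 and 9.20, and those of Nfic 6.63 and 8.54. The Nfia intervals, 5.84 to 14.1 and 8.61 to 16.7, held the folds of both Fabp7 and Hes1, so these genes were not ranked.

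The genes whose pattern was most like each member were found by the distance over 6 values: peaks per 100 kb, highest fold in the region and highest promoter fold, each in both replicates, as log2(value + 1) scaled by the SD over all genes. For Nfib they were Rsf1, Sart3 and Ogfod1, at distances of 0.059 to 0.090. For Nfia they were Foxk1, Tubb3 and Snupn, at 0.135 to 0.176. For Nfic they were Nptx1, Spef1 and Cldn11, at 0.201 to 0.257, and for Nfix they were Nit1, Dgat1 and Lrrc4, at 0.218 to 0.245.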

How the data were processed

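V5 CUT&RUN peaks were deposited as 4 peak lists, one per library. Per the submitters' processing notes and the methods, the authors trimmed reads with Trimmomatic 0.39, aligned them to mm10 with BWA 0.7.17, removed duplicates with Picard 2.26.6 and called peaks with MACS2 2.2.7.1 in each library. The deposited fold is a ratio made by the authors of summit fragments plus 1 to background plus 1. The authors' MACS2 also gave each deposited peak its −log10 p and −log10 q, and the deposited score is −log10 q scaled to a whole number. A list shows no depth, so the library background was recovered as the value (searched from 0.3 to 4 in steps of 0.0005, tolerance 0.02) at which peaks with folds up to 30 give whole fragments whose Poisson p matches the deposited one.

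Peaks were placed on GENCODE M21 (GRCm38, counted from 1) as promoter (peak within 1 kb of a protein-coding start of the gene), exon, intron or flank, by summit for the last 3. The filter used the limits of the methods: fold and −log10 q above 6, length under 10000 bp and under 10 bp of overlap with a control peak. The methods also keep only sites within open chromatin from single-nucleus ATAC-seq, data not used here. Shared sites needed 1 bp of overlap. To pass a fold of 6, a summit must hold 13 fragments in replicate 1 and 18 in replicate 2 of the Foxr2 p53LOF line. Sequences came from the RefSeq GRCm38.p6 genome. Python 3.11.15, numpy 2.4.6, pandas 2.3.3, scipy 1.17.1 and matplotlib 3.10.9 were used. On simulated data 100.0% of 1990 planted shared sites were recovered. Members, the gliogenic list of 16, motifs and rules were chosen with earlier results of these data known. Named genes are the members, that list, neighbors with a start within 1 kb of a peak, and the 3 genes nearest in pattern to each member, leaving out genes whose region overlaps it. Alternatives covered the region, the fold, q and length limits, control and replicate overlap, promoter width, chromosome scaling, motif window and leaving out each replicate, and 2 more were chosen after seeing the data.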

Additional observations from a re-analysis of the deposited data

How the results depend on the processing

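The 24 reproducible sites became 11 with the gene body alone or with 10 kb either side, 5 with a minimum fold of 10, 14 with a minimum −log10 q of 10 (none of them at Nfib), 49 with no minimum on fold or q, and 13 without sites at the start of a neighboring gene, an alternative chosen after seeing the data. The cause was not tested beyond what each limit removes. Leaving out each library in turn gave 24 to 32 sites and 3 to 4 genes with a promoter site. With no length limit there were 32 sites and Nfib joined the genes with a promoter site, and within the bodies alone, chosen after seeing the data, 19 sites. With a minimum fold of 10 the genes with a promoter site fell from 3 of 4 to 0 of 4, while the share over all protein-coding genes went from 39.2% to 19.7%, and with a minimum −log10 q of 10 there were 2 of 4, against 33.5%. In 100 bp windows the ELK-type motif and the NFI palindrome were in 0% of NFI windows in replicate 1, and in replicate 2 CATATG was in 0% and CAGATG in 5.81%. A window of 400 bp raised shares over all peaks as well. In replicates 1 and 2 it gave 46.8% and 48.8% for SOX against 42.7% and 45.1% over all peaks, 29.0% and 32.6% for forkhead against 21.8% and 23.7%, and 16.1% and 11.6% for AP-1 against 12.2% and 12.1%. In replicate 2 it gave 18.6% for the ETS core against 24.1%, 6.98% for CATATG against 7.0%, and 30.2% for the single NFI motif against 19.6%, where the interval no longer included the share over all peaks. That interval treats windows of a gene as independent, which they are not. The other 75 settings stayed within the spread or within 1.5 times the count, among them the highest folds scaled by chromosome. Most NFI peaks rest on few summit fragments, down to 7 in replicate 1 and 8 in replicate 2, so weak loci seen in 1 replicate cannot be called absent from the other. No paired fit was made, because no result here comes from a test.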
